A study of Mus musculus with 9 samples.

Results

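Arterial smooth muscle cells of the mouse brain (41 cells labelled aSMC) were set against pericytes (54 cells labelled PC) over all genes, among 1235 labelled cells in the series. A cell belonged to a group by its deposited label alone. Brain tissue of adult mice had been taken apart mechanically and with enzymes, vascular fragments had been digested to single cells, and the cells had been sorted into 384-well plates for full-length Smart-seq2 sequencing, a protocol without molecular identifiers. The labels give neither a strain, sex, exact age nor treatment, and name no genotype or transgene. Each type was deposited as 1 sample with no animal named. No test between types was therefore possible, and the intervals given cover counting error only.

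Smooth muscle cells wrap arteries and arterioles in closed rings and set vessel diameter by contracting through smooth muscle actin and myosin. Pericytes sit on capillaries inside the endothelial basement membrane, carry less contractile protein, and are known in the brain for their part in the blood-brain barrier. Both are mural cells, both depend on PDGF receptor beta during development, and in the brain they grade into each other along the vascular tree.

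The aSMC cells held 11629056 reads in all, between 123200 and 734460 per cell with a median of 269635. The PC cells held 10701951 reads, between 100401 and 551353 per cell with a median of 158325. Cell names carried 4 prefixes, taken here as plates; aSMC cells numbered 7 on s169s, 13 on s480s, 11 on s482s and 10 on s483s, and PC cells 10, 10, 22 and 12 in the same order. Levels are CPM, the reads of a gene in the pooled cells of a type scaled to a common total, and differences are aSMC minus PC in log2(CPM + 5), so that 2 log2 units are 4-fold. The 3 reads taken as the detection limit correspond to 0.258 CPM in aSMC and 0.280 CPM in PC. Where 1 type had next to no reads, the size of a difference depends on the 5 CPM added.

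The labels were checked on single cells with a contractile list of 29 genes and a pericyte list of 19 genes. The contractile sum exceeded the pericyte sum in 41 of 41 aSMC cells, in 23 of 29 cells labelled vSMC, and in 9 of 54 PC cells. Of the 2 sums together, the contractile share was 81.0 to 99.9% in aSMC cells (median 95.9%), 29.5 to 90.8% in vSMC cells (median 66.7%) and 10.8 to 89.2% in PC cells (median 28.1%). A pair of PC cells stood apart with little of either list: one on plate s169s had 161 CPM of pericyte and 1329 CPM of contractile genes, and one on plate s482s had 580 and 1115 CPM. Without this pair the counts of genes 4-fold apart given further on became 153 higher in aSMC and 160 higher in PC. The sources used here do not record how labels were given to cells, and a gene that served for this would be no independent sign of the type.

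**Figure D1:**
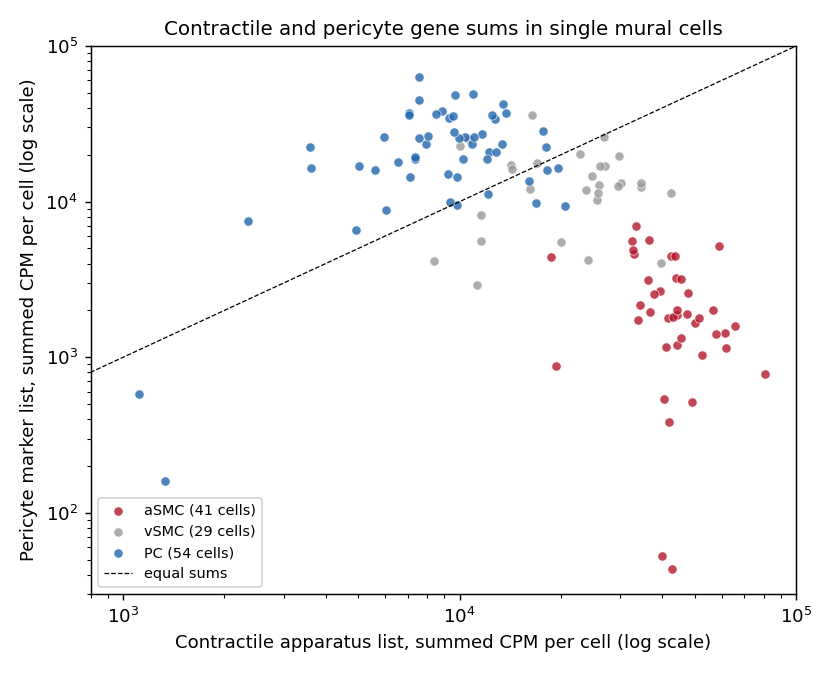
Summed level of the contractile list (x axis, CPM per cell, log scale) against that of the pericyte list (y axis, CPM per cell, log scale) for 41 aSMC, 29 vSMC and 54 PC cells; each point is 1 cell and the dashed line marks equal sums. All aSMC cells lie under the line, most PC cells above it, vSMC cells between, and 2 PC cells lie far below the others.

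At least 4-fold apart were 150 genes higher in aSMC and 154 higher in PC, counting only genes with at least 50 CPM in the higher type and a read in at least 50% of its cells. The 150 genes were 1.22% of the 12252 genes above 5 CPM in either type and 6.42% of the 2337 genes that met the minimums of level and share. The 154 genes higher in PC were 1.26% and 6.59% of the same genes. These shares are the background for the list counts below. Those counts follow the same size rule, so other list members can be 4-fold apart below its minimums. Most transcripts that met the minimums were close in both types, 1566 of the 2337 within 2-fold, and the median difference was 0.11 over these 2337 genes and −0.15 over all 12252. On each of the 4 plates taken alone, 139 of the 150 genes stayed higher in aSMC and 127 of the 154 stayed higher in PC.

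The genes furthest towards aSMC were Ltbp1, which holds latent TGF-beta in the matrix, Pdlim3, a PDZ and LIM protein of actin filaments, Cnn1, the smooth muscle calponin, Pln, the phospholamban that restrains the calcium pump of the sarcoplasmic reticulum, and Myocd, the coactivator that switches on smooth muscle genes. Their differences ran between 7.00 and 7.37. The next 10 were Gpr20, an orphan receptor, Palld, which cross-links actin, Itpk1, an inositol phosphate kinase, Adamtsl1, Susd5, the tetraspanin Tspan2, the F-box protein Fbxl22, the olfactory receptor Olfr558, Myh11, the smooth muscle myosin heavy chain, and Nrip2, at 5.45 to 6.91.

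Furthest towards PC were Kcnj8 (−8.37) and Abcc9 (−7.90), which encode the channel and the sulphonylurea receptor of the vascular ATP-sensitive potassium channel. They were followed by the cation-transporting ATPase Atp13a5 (−6.83), Ifitm1 (−5.85), the amino acid transporter Slc6a20a (−5.65), Plxdc2 (−5.54), Art3 (−5.45) and the growth factor pleiotrophin, Ptn (−5.30). Further on in the first 15 were Lrrc8b, Trf, Adk, Lama2, Vtn and Marcks, at −4.59 to −4.36. Trf, the transferrin gene, was the exception among plates, at −0.13 on s169s and −0.30 on s480s against −5.05 on s482s and −6.24 on s483s, and MG cells had it at 1518 CPM. Others were also higher outside PC: Marcks in MG (410 against 197 CPM in PC), Lrrc8b in the endothelial type vEC (232 against 190 CPM) and Ptn in FB (2990 against 2476 CPM). Plxdc2 stood at 673 CPM in both PC and MG.

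**Figure D2:**
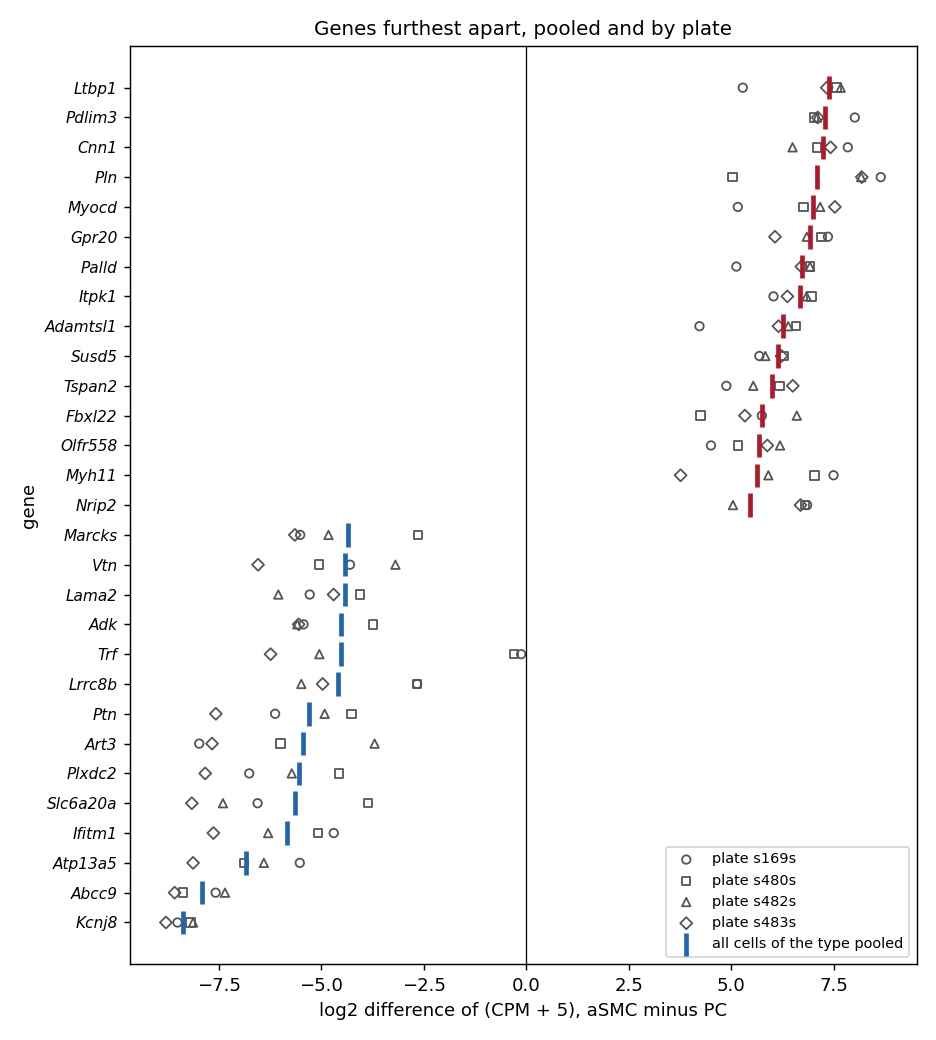
The log2 difference (aSMC minus PC, x axis) of 29 of the genes furthest apart (y axis, 15 higher in aSMC and 14 higher in PC), for all cells pooled (coloured bar) and for each of the 4 plates (open symbols). Every plate value lies on the same side of 0 as the pooled bar, and Trf reaches −0.13 on plate s169s.

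Contractile genes were higher in aSMC as a group. Of the 29 genes, all measured above 5 CPM, 20 were at least 4-fold higher in aSMC and 0 in PC, and the median difference was 3.21 (2.27 to 3.76 by plate). Its summed level was 42769 CPM in aSMC, 19880 CPM in vSMC and 9353 CPM in PC, and 39 of 41 aSMC cells lay above the highest PC cell.

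Cnn1 reached 1294, 678, 463 and 1151 CPM in aSMC on s169s, s480s, s482s and s483s, against 0.667, 0, 0.192 and 1.75 CPM in PC. Cell by cell, Cnn1 ran between 0 and 2068 CPM in aSMC with a median of 618, and between 0 and 7.88 CPM in PC with a median of 0. It was thus not read in 12 of 41 aSMC cells, while 26 aSMC cells lay above every PC cell. After thinning every cell to 100000 reads, a Cnn1 read was seen in 63.4% of aSMC cells and 5.56% of PC cells. The share in MG cells, a type that should lack it, was 7.30% at the same thinned depth, so the PC share was at background. Before thinning, the median depth of MG cells was 232674 reads.

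Acta2, smooth muscle alpha-actin, separated the cells without overlap. It lay between 3078 and 12603 CPM in the 41 aSMC cells (median 7022) and between 0 and 2505 CPM in the 54 PC cells (median 31.4). By plate it stood at 9121, 5760, 5638 and 6819 CPM in aSMC and at 110, 722, 163 and 51.3 CPM in PC, a pooled difference of 4.62. The PC level on s480s was thus the highest of the 4.

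Myh11 averaged 2420 CPM in the pooled aSMC cells and 44.1 CPM in PC cells (5.63), and Tagln, the actin-binding transgelin, 2738 and 63.1 CPM (5.33). Csrp1, a LIM protein of the actin cytoskeleton, had 2334 CPM in aSMC and 89.4 CPM in PC (4.63), Lmod1, the smooth muscle leiomodin, 680 and 40.2 CPM (3.92), and the tropomyosin Tpm2 3099 and 310 CPM (3.30). The enzymes that set myosin phosphorylation were also higher in aSMC: Mylk, the myosin light chain kinase, at 2477 and 476 CPM (2.37, and 1.97 without plate s482s), and the myosin phosphatase genes Ppp1r12b at 1189 and 93.7 CPM (3.60), Ppp1cb at 579 and 58.0 CPM (3.21) and Ppp1r12a at 421 and 89.8 CPM (2.17). Ppp1r12a was the exception among plates, lower in aSMC on s169s (−1.01), and stood at 1.74 without s480s.

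The regulatory light chain and its partners were nearer. Myl9, the regulatory light chain, stood at 4565 CPM in aSMC and 2997 CPM in PC (0.61), and Myl6, the essential light chain, at 1426 and 527 CPM (1.43). Caldesmon, Cald1, at 1585 CPM in aSMC and 1858 CPM in PC (−0.23), and the kinase Rock2, at 101 and 109 CPM (−0.10), were the pair of list members with a value below 0. Actg2, the enteric actin, had 103 CPM in aSMC and no read in PC, but only 9 of 41 aSMC cells had a read, with 249 CPM on s169s and 204 CPM on s480s. The Actg2 and Acta2 coding sequences are nearly alike, so reads may have been split between them in the authors' counting.

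**Figure D3:**
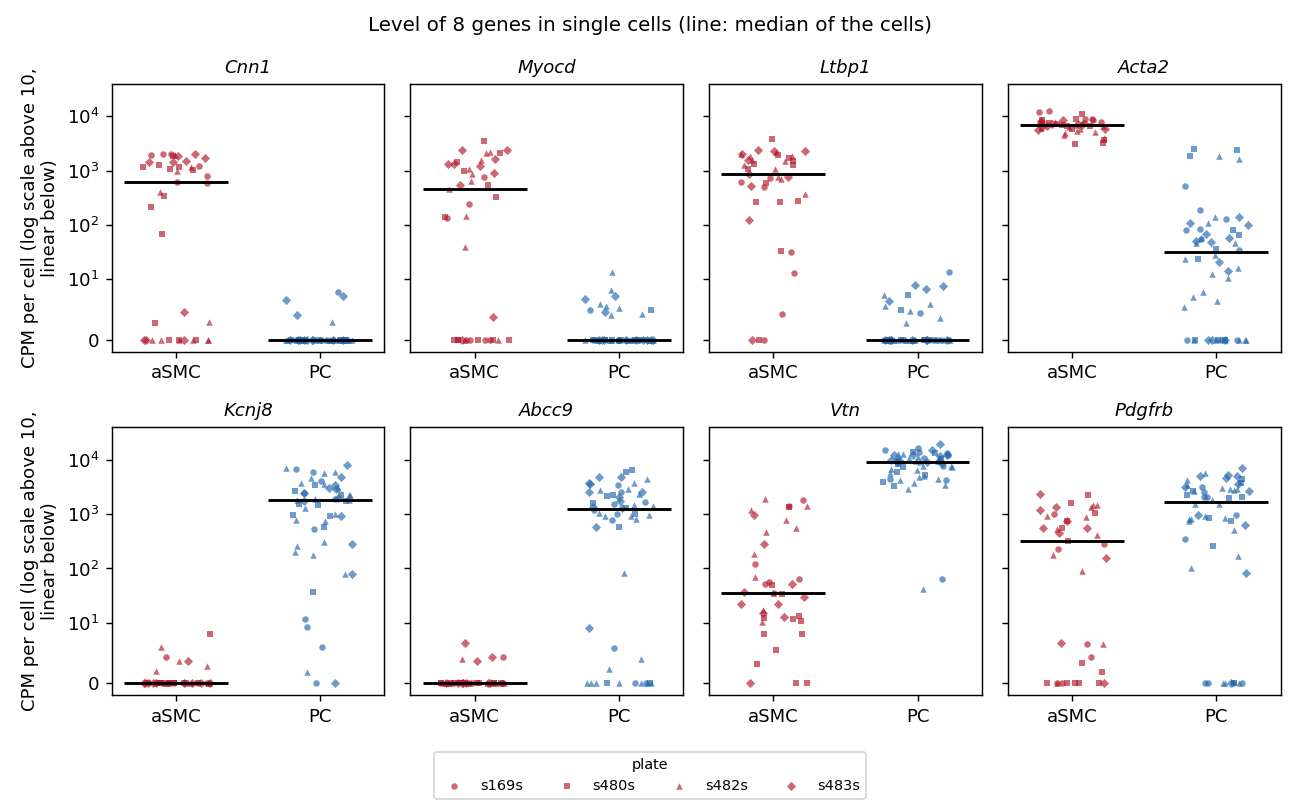
Level per cell (y axis, CPM, log scale above 10 and linear below) of 8 genes in aSMC cells (left in each panel) and PC cells (right), with the median as a line and the 4 plates as symbols. Acta2 shows no overlap, Kcnj8 and Abcc9 stay under 10 CPM in every aSMC cell, and Pdgfrb overlaps widely.

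Many contractile genes are known to be switched on by serum response factor with myocardin through the CArG box, a core of 6 A or T bases between CC and GG. Promoter windows of 250 bases before to 50 bases after the gene start, from the RefSeq tables (GRCm38.p6), were searched for it; the pattern is its own reverse complement, so both strands are covered, and it was the only motif searched. Of the 29 contractile genes 23 had a window, and 3 of these held the box, against 1.81% of the 27025 genes in the table. Allowing 1 G or C in the core, it was held by 5 of 23 (21.7%), against 11.3% of all genes. Of the pericyte list 13 genes had a window and 0 held the box in either form. Among genes 4-fold apart, 5 of 118 with a window held the box on the aSMC side (4.24%) and 2 of 110 on the PC side (1.82%). A match is a description of letters and not evidence of a bound site. The windows below show the box, in capitals, with 10 bases on either side, for all 5 contractile genes that held it in either form.
Acta2, chr19:34255438-34255467, minus strand, 84 to 75 bases before the start: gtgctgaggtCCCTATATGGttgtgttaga
Acta2, chr19:34255388-34255417, minus strand, 34 to 25 bases before the start: cgtctttgctCCTTGTTTGGgaagcgagtg
Pdlim3, chr8:45885377-45885406, plus strand, 100 to 91 bases before the start: tctctcacttCCAAAGTTGGagctctcctt
Myl9, chr2:156775293-156775322, plus strand, 161 to 152 bases before the start: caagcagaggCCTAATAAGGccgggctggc
Myl9, chr2:156775355-156775384, plus strand, 99 to 90 bases before the start: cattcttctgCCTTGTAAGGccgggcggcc
Myl6, chr10:128493040-128493069, minus strand, 50 to 41 bases before the start: gctcttacttCCTTATATGGgcaggaccta
Ldb3, chr14:34588697-34588726, minus strand, 35 to 26 bases before one start and 109 to 100 before another: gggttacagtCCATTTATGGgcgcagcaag
The Acta2 and Pdlim3 boxes and the Myl9 box nearer the start hold 1 G or C in the core, and the other Myl9 box and those of Myl6 and Ldb3 hold 0. The Acta2, Myl6 and Ldb3 windows fall inside the annotated span of their gene. Acta2 differed by 4.62, Pdlim3 by 7.28, Myl9 by 0.61 and Myl6 by 1.43. Ldb3, a PDZ and LIM protein, had 132 CPM in aSMC and no read in PC, but was read in too few aSMC cells for the size rule.

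Myocd itself was close to the detection limit in PC. It stood at 197, 586, 934 and 1238 CPM in aSMC on s169s, s480s, s482s and s483s, and at 0.667, 0.438, 1.54 and 1.75 CPM in PC. Per cell it ran between 0 and 3521 CPM in aSMC (median 454) and between 0 and 13.7 CPM in PC (median 0), and 27 of 41 aSMC cells lay above every PC cell. Its partner Srf was low in both, at 16.2 CPM in aSMC and 7.38 CPM in PC (0.77), and the related coactivators Mkl1 (72.1 and 89.8 CPM) and Mkl2 (57.4 and 81.7 CPM) differed by −0.30 and −0.47.

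Of 26 measured transcription factors of mural cells, 2 were 4-fold higher in aSMC, Myocd and the immediate early gene Nr4a1 (2119 against 271 CPM), and 1 in PC, Foxf2. Foxf2, a forkhead factor of brain pericytes, had 32.6 CPM in aSMC and 151 CPM in PC (−2.05), just past the threshold, and lay under 4-fold in 9 of 17 alternatives. The median of the list was 0.33. Among factors shared by mural cells, Tbx18 was higher in aSMC but under 4-fold, at 120 CPM in aSMC and 44.6 CPM in PC (1.33). Others were close: Foxs1 had 477 CPM in aSMC and 391 CPM in PC (0.28), Ebf1 463 and 401 CPM (0.20), and Heyl 834 and 819 CPM (0.03).

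In the potassium channels the types differed in which channel they held. Kcnj8 stood at 0.626, 0.257, 1.49 and 0.359 CPM in aSMC on s169s, s480s, s482s and s483s, against 2049, 1531, 1815 and 2373 CPM in PC. Per cell it reached 8.12 CPM at most in aSMC (median 0), while in PC it ran between 0 and 8098 CPM with a median of 1795. Only 2 PC cells had no Kcnj8 read, and 50 of 54 lay above the highest aSMC cell. Its partner Abcc9 had 0.626, 0, 0.298 and 1.44 CPM in aSMC and 1072, 1656, 861 and 2460 CPM in PC. It reached 6.58 CPM at most in an aSMC cell (median 0), and ran between 0 and 6598 CPM in PC cells (median 1244), 11 of which had no read. After thinning, 9.76% of aSMC cells, 94.4% of PC cells and 16.8% of MG cells had a Kcnj8 read, so the aSMC share was at background. The vSMC cells lay between, at 239 CPM of Kcnj8 and 127 CPM of Abcc9. The genes lie next to each other on chromosome 6 in RefSeq.

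Of the other channel genes 1 was called. Kcnab1, a beta subunit of voltage-gated channels, had 379 CPM in aSMC and 44.3 CPM in PC (2.96). Its PC level came from plate s480s, at 206 CPM against 0 to 1.33 CPM on the other 3, and the plate difference there was 0.58. Kcna5, a voltage-gated channel of arterial muscle, stood at 87.0 CPM in aSMC with no read in PC, Kcnma1, the pore of the BK channel, at 47.0 CPM with no read in PC, and Kcnk3, a leak channel, at 155 and 22.4 CPM (2.55); these did not reach the minimums of level and share. Kcnmb1, the smooth muscle beta subunit of the BK channel, had 318 CPM in aSMC and 110 CPM in PC (1.49). In all, 11 of 17 channel genes were measured, 1 was 4-fold higher in aSMC and 2 in PC. The list median was 1.49, with plate medians between 0 and 1.47, while the summed level was 1464 CPM in aSMC and 3596 CPM in PC.

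Calcium handling differed at the sarcoplasmic reticulum. Pln had 2530, 1190, 1708 and 1955 CPM in aSMC by plate and 1.33, 31.5, 0.961 and 1.75 CPM in PC, and 36 of 41 aSMC cells lay above the highest PC cell, at 662 CPM. The pump that Pln restrains, Atp2a2, stood at 572 CPM in aSMC and 141 CPM in PC (1.98), just under the threshold. Camk2g, a calmodulin kinase, had 502 and 106 CPM (2.19, and under 4-fold without s169s or s483s). The voltage-gated calcium channel Cacna1c was at 31.6 CPM in aSMC and 109 CPM in PC (−1.64), with plate values between −5.28 and −0.17. Lower in aSMC, but read in too few cells for the size rule, were the inositol trisphosphate receptor Itpr2 (1.03 and 107 CPM) and calsequestrin, Casq2 (67.5 and 359 CPM, with 935 CPM in vSMC). Of 23 measured genes 2 were 4-fold higher in aSMC and 0 in PC, with a median of 0.23.

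Receptors for vasoactive signals were split. Of 30 measured genes (of 41 listed), 3 were 4-fold higher in aSMC, 1 was 4-fold higher in PC, and 10 more were 4-fold apart below the minimums, with a median of −0.10. Npy1r, the receptor of the constrictor neuropeptide Y, stood at 377 to 623 CPM in aSMC by plate and at 0.583 to 153 CPM in PC (3.95). A single PC cell reached 1771 CPM, 45 of 54 PC cells had no read, and the difference was 5.62 without the largest cell. Mrgprf, an orphan receptor, had 373 CPM in aSMC and 13.9 CPM in PC (4.32, and 6.04 without the largest cell), and Ramp1, which makes the calcitonin receptor-like receptor respond to CGRP, 365 and 52.5 CPM (2.69). The Ramp1 difference was 1.99 without s482s and 1.75 without the cells richest in endothelial genes. Ramp2, which makes the same receptor respond to adrenomedullin, leaned the other way, at 300 CPM in aSMC and 540 CPM in PC (−0.84, between −0.97 and −0.67 on the 4 plates).

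On the PC side, P2ry14, a receptor for UDP-sugars, had 152 CPM in aSMC and 993 CPM in PC (−2.67, −7.59 to −0.88 by plate). The thromboxane receptor Tbxa2r had 44.2 and 399 CPM (−3.04) and the thrombin receptor F2r 26.7 and 241 CPM (−2.96), both in too few cells for the size rule. Receptors of endothelin and sphingosine phosphate did not separate the types: Ednra had 723 CPM in aSMC and 794 CPM in PC (−0.13), and S1pr3 626 and 621 CPM (0.01).

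Downstream of the receptors, soluble guanylate cyclase, the nitric oxide sensor, was close, with Gucy1a3 at 1063 CPM in aSMC and 816 CPM in PC (0.38) and Gucy1b3 at 388 and 609 CPM (−0.65). Phosphodiesterases, which break down cyclic nucleotides, differed by family member: Pde3a had 811 CPM in aSMC and 195 CPM in PC (2.03), Pde2a 58.0 and 248 CPM (−2.01), Pde4d 3.35 and 89.5 CPM (−3.50) and Pde8b 36.03 and 288 CPM (−2.83). Pde3a and Pde2a lie just past the threshold and fell short of it in 9 and 7 of 17 alternatives, and Pde4d and Pde8b were read in too few cells for the size rule. Mrvi1, the target through which cGMP kinase acts on calcium release, had 463 CPM in aSMC and 102 CPM in PC (2.12), and Akap12, a scaffold of protein kinase A, 72.2 and 316 CPM (−2.06). These were under 4-fold in 4 and 5 of 17 alternatives. Of 19 measured genes of cyclic nucleotide signalling, 2 were 4-fold higher in each type, with a median of −0.25.

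Of 11 measured genes of the RGS family, which shorten G protein signals, 1 was 4-fold higher in each type (median −0.48). Rgs5 stood at 1099, 761, 2152 and 853 CPM in aSMC on s169s, s480s, s482s and s483s, against 5538, 5496, 5857 and 7886 CPM in PC (−2.30). Per cell it ran between 0 and 4761 CPM in aSMC (median 607) and between 18.1 and 14020 CPM in PC (median 6532), and 42 of 54 PC cells lay above every aSMC cell. The vSMC level, 7412 CPM, was above both. In cells at or below 10000 CPM of immediate early genes, described further on, Rgs5 differed by −1.73. Rgs7bp, which anchors RGS proteins at the membrane, had 353 CPM in aSMC and 26.4 CPM in PC (3.51), while Rgs4 was close at 1950 and 1263 CPM (0.62).

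Genes held in common by mural cells were mostly within 4-fold: of 13 measured, 0 were higher in aSMC and 1, Rgs5, in PC, with a median of 0.28. Pdgfrb, the PDGF receptor, stood at 238, 418, 624 and 642 CPM in aSMC by plate and at 1020, 1850, 1622 and 3360 CPM in PC (−1.87). Single cells ran between 0 and 2385 CPM in aSMC (median 314) and between 0 and 7107 CPM in PC (median 1696), so the cells overlapped although PC was higher on every plate. Mcam, a cell adhesion molecule of mural and endothelial cells, had 1460 CPM in aSMC and 754 CPM in PC (0.95).

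In the Notch pathway, which maintains arterial smooth muscle, 0 of 17 measured genes met the size rule in either direction (median −0.46). Below its minimums, 1 gene was 4-fold apart. The main mural receptor Notch3 had 494 CPM in aSMC and 890 CPM in PC (−0.84), and Notch1 357 and 900 CPM (−1.32). The ligand Jag1 leaned to aSMC on each plate, at 130 CPM in aSMC and 41.2 CPM in PC (1.55).

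Of 29 measured TGF-beta and BMP genes, 2 were 4-fold higher in aSMC and 2 in PC (median 0.53). Only 11 of the 29 met the minimums, and 10 others were 4-fold apart below them, towards either type (Bmp2 at 2.29, Bmp4 at −3.30). Ltbp1 had 267, 1110, 1324 and 1360 CPM in aSMC by plate and 2.00, 0.875, 1.54 and 3.50 CPM in PC. It was read in all but 3 aSMC cells, with a median of 883 CPM, and no PC cell passed 13.7 CPM. The ligand Tgfb3 stood at 484 CPM in aSMC and 7.01 CPM in PC (5.35). Its aSMC cells varied widely, between 0 and 2537 CPM with a median of 4.26. The BMP coreceptor Eng, endoglin, had 206 CPM in aSMC and 964 CPM in PC (−2.20), and the receptor Acvrl1 14.9 and 81.3 CPM (−2.12). Both are also endothelial genes, and once the cells over 10% of a median capilEC cell's endothelial sum were left out they stood at −1.76 and −1.48.

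Among PDGF, angiopoietin and related growth factor genes, 1 of 20 measured was 4-fold higher in each type (median −1.09). Fgf1, acidic fibroblast growth factor, had 341, 292, 466 and 427 CPM in aSMC by plate and 1.33, 0, 11.2 and 0 CPM in PC (5.19). Igf2, insulin-like growth factor 2, had 13.3 CPM in aSMC and 527 CPM in PC (−4.86), with a read in 48.1% of PC cells, just short of the minimum share, and FB cells had it at 2748 CPM. The receptor Tek, at 36.1 CPM in aSMC and 164 CPM in PC (−2.04), is an endothelial gene, and its difference was 0.00 once cells over 25% of that sum were left out. Tek is itself part of that sum, so its fall follows in part from the choice of cells. Of the 4 connexins measured, which form gap junctions, 0 were 4-fold apart (median −0.56). Gja4 (connexin 37) had 1135 CPM in aSMC and 947 CPM in PC (0.26), and Gjc1 (connexin 45) 164 and 262 CPM (−0.66).

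Basement membrane genes leaned to PC. Of 21 measured, 1 was 4-fold higher in aSMC and 4 in PC, and the median was −1.18 (−1.76 to −1.08 by plate), beside −0.15 over all genes. Vtn, vitronectin, stood at 450, 198, 635 and 115 CPM in aSMC by plate, against 8986, 6763, 5855 and 11166 CPM in PC (−4.42), and 52 of 54 PC cells lay above the highest aSMC cell, at 1879 CPM. The 2 PC cells that did not were on s169s and s482s. FB cells also held Vtn, at 4760 CPM.

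The laminin chains differed in kind. The alpha 2 chain Lama2 had 0, 27.7, 0.298 and 29.1 CPM in aSMC by plate and 190, 539, 347 and 883 CPM in PC (−4.42). The gamma 1 chain Lamc1 had 76.3 CPM in aSMC and 460 CPM in PC (−2.52), and nidogen, Nid1, which links laminin to collagen IV, 86.9 and 471 CPM (−2.37, and −1.59 in cells at or below 10000 CPM of immediate early genes). Lamb1, the beta 1 chain, had no read in aSMC and 209 CPM in PC, and Lamc3 had 47.0 CPM in aSMC and 395 CPM in PC (−2.94), both read in too few cells for the size rule. The alpha 5 chain Lama5 went the other way, at 232 CPM in aSMC and 17.1 CPM in PC (3.42), lowest on s169s at 18.8 CPM in aSMC. Collagen IV was nearer, with Col4a1 at 270 CPM in aSMC and 641 CPM in PC (−1.23) and Col4a2 at 252 and 504 CPM (−0.98).

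In the elastic and fibrillar matrix 0 of 21 measured genes met the size rule in either direction (median −0.01), while 10 were 4-fold apart in too few cells. Eln, elastin, had 202 CPM in aSMC and 105 CPM in PC (0.91). Thbs1, thrombospondin 1, had 357 CPM in aSMC and 0.280 CPM in PC (6.10), but a read in 14 of 41 aSMC cells only, 34.1%. Dcn, decorin, with 0.946 CPM in aSMC and 102 CPM in PC (−4.16), and Col3a1, with 74.5 and 321 CPM (−2.04), are fibroblast genes.

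Of 23 measured integrins and focal adhesion genes, 2 were 4-fold higher in aSMC and 1 in PC (median 0.09). Zyx, zyxin, a LIM protein of focal adhesions, had 505 CPM in aSMC and 80.5 CPM in PC (2.58), and Ptrf, which shapes caveolae, 1063 and 186 CPM (2.48). Focal adhesion kinase, Ptk2, was lower in aSMC, at 2.51, 72.4, 73.4 and 108 CPM by plate, against 237, 950, 849 and 567 CPM in PC (−3.28). The integrins Itga8, at 141 CPM in aSMC and 7.94 CPM in PC (3.49), and Itga9, at 91.0 and 0.280 CPM (4.18), were read in too few cells for the size rule. Talin, Tln1 (479 and 611 CPM), and vinculin, Vcl (707 and 733 CPM), were close, at −0.35 and −0.05.

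The transporter list leaned to PC, but it shares Abcc9, Atp13a5, Slc6a12, Slc6a13, Slc6a20a and Slc19a1 with the pericyte marker list. Of 26 measured solute carriers and pumps, 2 were 4-fold higher in aSMC and 6 in PC, 8 more were 4-fold apart below the minimums, and the median was −1.80 (−2.85 to −0.75 by plate). Abcc9, described above, is on this list, and Atp13a5 was the next furthest apart, at 0.688 CPM in aSMC and 642 CPM in PC, though 24 of 54 PC cells had no read. Slc6a20a had 14.2 CPM in aSMC and 958 CPM in PC (−5.65), and FB cells had more, 1916 CPM. The organic anion transporter Slc22a8 had 57.6 CPM in aSMC and 961 CPM in PC (−3.95), and capilEC cells had 1435 CPM. Leaving out cells over 10% of the capilEC endothelial sum gave a larger Slc22a8 difference, −5.64. Slc16a1 was also called, at −2.06, but fell under 4-fold in 10 of 17 alternatives, leaving out cells rich in endothelial genes among them.

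The sodium pump subunit gene Atp1b1 (beta 1) had 608, 602, 672 and 675 CPM in aSMC, against 0, 13.1, 125 and 1.17 CPM in PC (3.24). A single PC cell carried much of the PC level: the difference was 5.80 without the largest cell, 5.87 without s482s and 5.90 without the pair of PC cells low in both mural lists. The beta 2 subunit Atp1b2 was close, at 1663 CPM in aSMC and 2138 CPM in PC (−0.36).

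In the lists of glycolysis and respiratory chain isoforms, few genes met the size rule. Genes of other energy pathways were not listed. Of 14 measured glycolytic genes 0 were 4-fold apart (median 0.27), with Gapdh at 173 CPM in aSMC and 165 CPM in PC (0.07). Of 10 measured respiratory chain isoforms, 1 was 4-fold higher in each type (median 0.20). Higd1b, a nuclear gene for a mitochondrial protein and a marker used for pericytes, had 225 CPM in aSMC and 1167 CPM in PC (−2.35). It was read in all 54 PC cells, and differed by −1.74 in cells at or below 10000 CPM of immediate early genes. Among complex IV genes, Ndufa4l2 had 359 CPM in aSMC and 1263 CPM in PC (−1.80) and Cox4i2 231 and 692 CPM (−1.56), both under 4-fold. Ndufa4 had 306 CPM in aSMC and 65.1 CPM in PC (2.15), and Cox4i1 was close at 948 and 842 CPM (0.17). Ndufa4 fell under 4-fold in 4 of 17 alternatives.

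The remaining pericyte markers completed the contrast. Of the pericyte list, 18 of 19 genes were measured, 9 were 4-fold higher in PC and 0 in aSMC, with a median of −4.33. Art3, an ADP-ribosyltransferase family member, had 3.76, 0.257, 54.6 and 0.359 CPM in aSMC by plate, against 2209, 330, 771 and 1085 CPM in PC (−5.45). Ifitm1 had 12.6 CPM in aSMC and 1006 CPM in PC, with 41 of 54 PC cells above the highest aSMC cell. Cspg4, which encodes NG2 and is often used for pericytes, was close at 358 CPM in aSMC and 446 CPM in PC (−0.31, −1.54 to 1.14 by plate), as was Slc19a1 at 643 and 1041 CPM (−0.69). Of the 16 arterial smooth muscle markers, 16 were 4-fold higher in aSMC, with a median of 5.41, and 5 of them are contractile genes already counted above. Both marker lists were chosen with earlier results of these data known, so their counts are no independent support for the contrast.

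**Figure D4:**
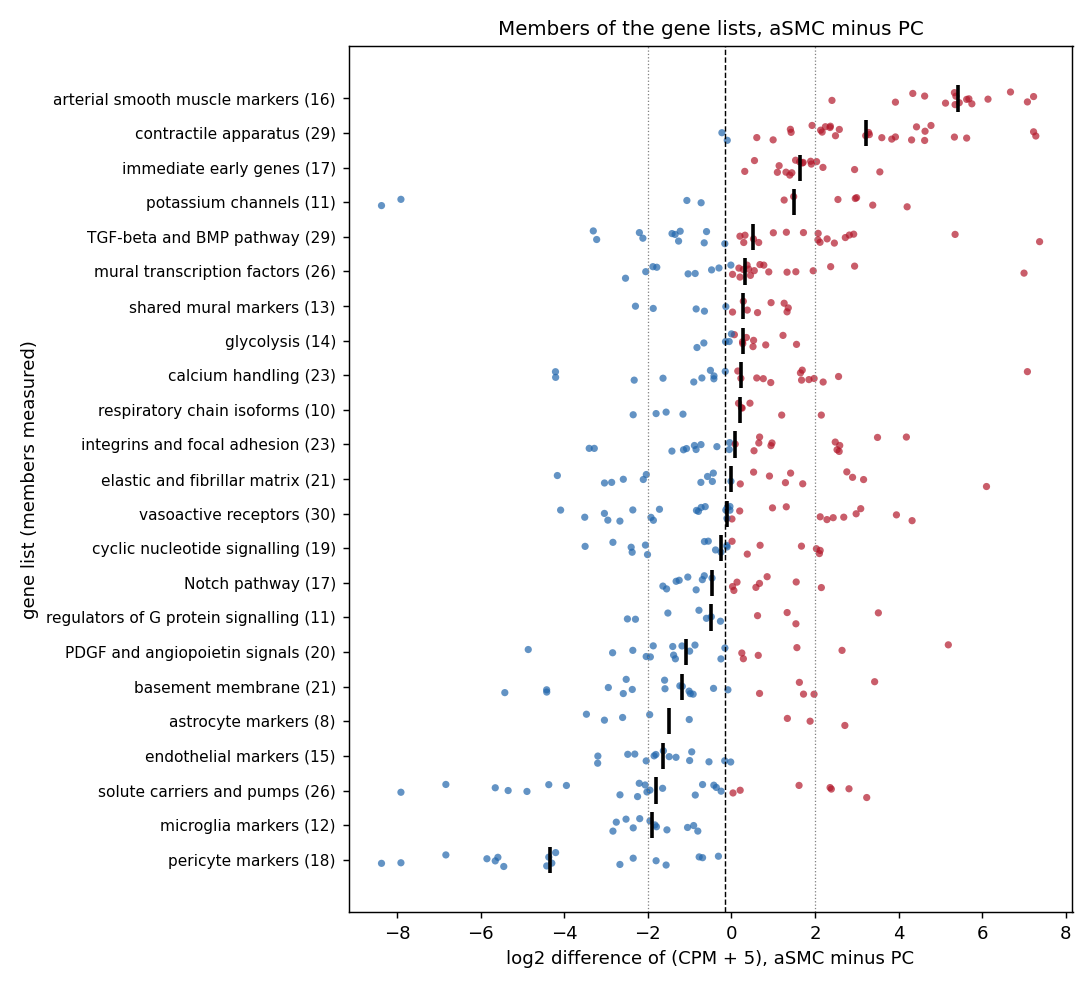
The log2 difference (aSMC minus PC, x axis) of every measured member of the lists with at least 8 measured genes (y axis, number measured in brackets); points are genes, black bars list medians, the dashed line the median of all 12252 genes and dotted lines 4-fold. Arterial smooth muscle and contractile genes lie to the right, at medians of 5.41 and 3.21, and pericyte markers and transporters to the left, at −4.33 and −1.80.

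Markers of other cell types moved with the comparison. Each of the 15 endothelial genes had a value below 0, with a median of −1.63, and 5 were 4-fold higher in PC. Their sum was 1692 CPM in aSMC and 5074 CPM in PC, against 22719 CPM in capilEC. Per cell it ran between 254 and 14664 CPM in aSMC (median 1145) and between 322 and 19518 CPM in PC (median 2390), and 1 aSMC cell and 8 PC cells passed 50% of the median capilEC cell. Among these genes Emcn had 57.2 CPM in aSMC and 566 CPM in PC (−3.20), and Flt1 96.1 and 559 CPM (−2.48).

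Of the 154 genes higher in PC, 81 were as high or higher in at least 1 endothelial type (aEC, capilEC or vEC) than in PC, 25 more only in MG or FB, and 48 in none of them. Leaving out the cells over 10% of a median capilEC cell's endothelial sum left 37 aSMC and 26 PC cells, in which 41 of the 81, 15 of the 25 and 37 of the 48 remained 4-fold higher in PC. Of the 150 genes higher in aSMC, 7, 18 and 125 fell into the same 3 classes, and 6, 14 and 104 remained. Kcnj8 (−8.31), Vtn (−4.89) and Ptk2 (−3.38) differed by as much without those cells, while Flt1 fell to −1.01, Slco1a4 to −1.21 and Abcb1a to −0.08. Flt1, Slco1a4 and Abcb1a are on the list whose sum chose the cells left out, so their fall follows in part from that choice.

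**Figure D5:**
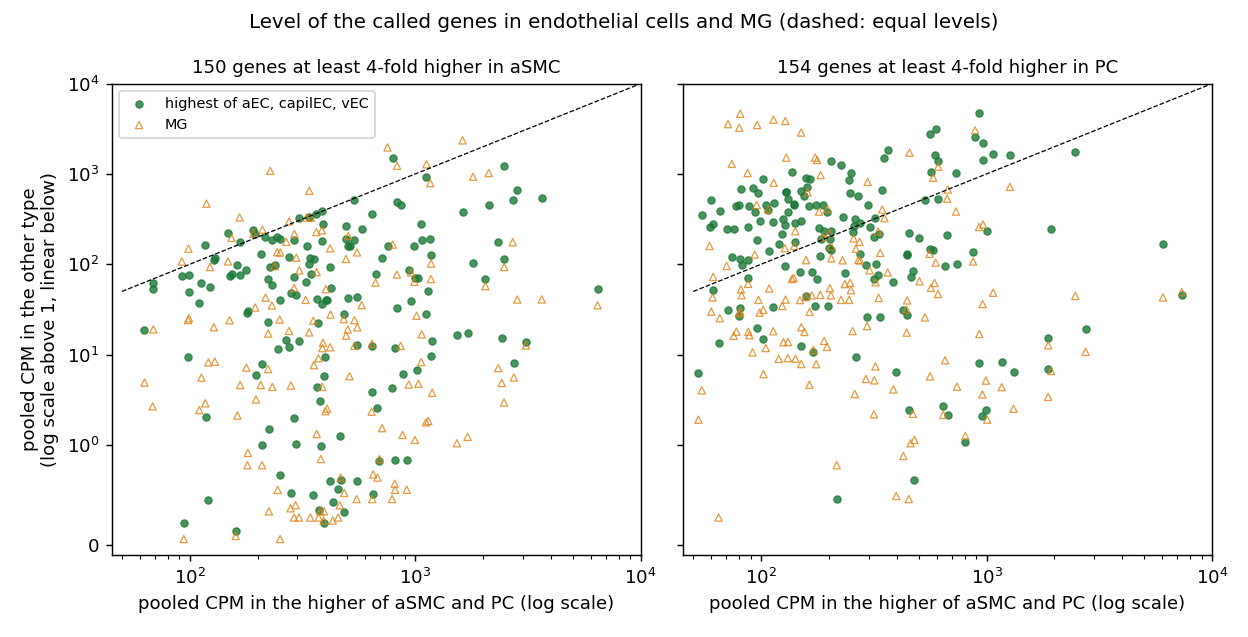
Pooled level of each called gene in the higher of aSMC and PC (x axis, CPM, log scale) against its level in the highest of aEC, capilEC and vEC (filled circles) or in MG (open triangles) on the y axis (CPM, log scale above 1), for the 150 genes higher in aSMC (left) and the 154 higher in PC (right). On the dashed line levels are equal; 81 of the 154 PC genes have their endothelial point on or above it, against 7 of the 150 aSMC genes.

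The 12 microglial genes summed to 181 CPM in aSMC and 774 CPM in PC, against 40494 CPM in MG. All had a value below 0 (median −1.89), and 4 were 4-fold higher in PC: C1qa, C1qc, Csf1r and Ctss. In 3 PC cells the sum passed 2000 CPM, with 16120 CPM in the highest, and it reached 878 CPM at most in aSMC. Without these 3 cells the 4 genes differed by −1.16, −1.13, −0.58 and −0.93, and the counts were 148 genes higher in aSMC and 137 in PC. The 4 genes are part of the sum that chose the 3 cells, so their smaller differences follow in part from that choice.

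Immediate early genes, which answer within minutes to stimuli that include cell dissociation, were higher in aSMC. All 17 measured had a value above 0 (median 1.63, 0.92 to 2.52 by plate), and 4 were 4-fold higher in aSMC: Atf3 (3.55), Nr4a1 (2.95), Btg2 (2.19) and Jund (2.04). Their sum was 19215 CPM in aSMC and 5933 CPM in PC, with medians per cell of 20201 and 1549 CPM, and 29601 CPM in MG. Only 12 aSMC cells and 43 PC cells stayed at or below 10000 CPM. In these cells alone Atf3 differed by −1.10, Btg2 by 0.37, Jund by −0.63 and Nr4a1 by 2.25. These genes are part of the sum that chose the cells, so their smaller differences follow in part from that choice. With those few cells 227 genes were 4-fold higher in aSMC and 312 in PC, of which 113 and 116 were among the 150 and 154. The part of the immediate early state in the other differences was not tested.

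Fibroblast genes summed to 317 CPM in aSMC and 735 CPM in PC, against 15307 CPM in FB, with Col1a1, Lum and Pdgfra under 1 CPM in both. Of the 4 measured, 0 met the size rule. Neuron and oligodendrocyte genes summed to 84.4 CPM in aSMC and 83.1 CPM in PC, with 2 of 10 measured. The astrocyte list summed to 9028 CPM in aSMC and 4710 CPM in PC, but Gfap and Aqp4 had no read in either, and Sparcl1, at 6886 and 2722 CPM (1.34), made up most of it. Of its 8 measured genes 1 was 4-fold higher in aSMC, Ppap2b (2.71), and 1 in PC, Apoe (−2.60). Apoe differed by −1.96 in the cells low in immediate early genes.

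The third mural label, vSMC, lay between the types for most of the genes 4-fold apart. These genes were chosen for a wide gap between aSMC and PC, which favours a place between. The same count was not made for other types. Of the 150 genes higher in aSMC, vSMC was between in 117, above both in 7 and below both in 26. Of the 154 higher in PC, it was between in 131, above both in 17 and below both in 6. On the log2 scale with PC at 0 and aSMC at 1, the median place of vSMC was 0.45 for genes higher in aSMC and 0.28 for genes higher in PC. The place differed by gene: Acta2 stayed high at 3728 CPM in vSMC and Olfr558 exceeded aSMC, with 607 CPM in vSMC and 280 CPM in aSMC. Cnn1 (0.636 CPM) and Susd5 (0.318 CPM) were near the detection limit in vSMC, of 0.477 CPM.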

How the data were processed

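Smart-seq2 reads of single cells from brain vessel fragments were counted by the authors. The deposited table held raw counts per gene and cell, whole numbers for 46517 gene rows, and a second deposited table held a type label per cell. The submitters' processing notes name featureCounts, SAMtools 1.16.1, Subread 1.4.6-p5 and the builds GRCm38 and GRCm39, without roles. Whether counting used strand is not stated, so reads from a stretch shared by overlapping or antisense genes, such as Pcsk7 and Tagln, cannot be told apart. The members and lists were chosen with earlier results of these data known.

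The counts of each type's cells were added up and scaled to CPM. A gene was called with at least 50 CPM in the higher type, a read in at least 50% of its cells and a difference of at least 2 in log2(CPM + 5). The genes named first were the first 15 in each direction, the furthest apart among called genes with 1 direction on all 4 plates; predicted genes, clone names, pseudogenes, ribosomal and mitochondrial genes were counted (6 in each direction) and not named. A few results, 1 of them among the first 15 higher in PC, are not reported here. Others are named by their list: 26 lists with 525 entries, 477 distinct genes, 9 found under an older symbol. A list member was measured with over 5 CPM in either type. The 50% minimum of the size rule was counted on all reads of a cell, so it was not adjusted for depth. Shares described as thinned were counted after cells were thinned at random to 100000 reads. Sums carry exact Poisson 95% intervals; for Kcnj8 they were 0.297 to 1.36 CPM in aSMC and 1851 to 1903 CPM in PC. Without molecular identifiers, PCR copies of 1 molecule count more than once, so the intervals cover counting error only. No doublet caller was run.

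Alternatives used TMM factors from edgeR 4.0.16 and size factors from DESeq2 1.42.0 (R 4.3.3), equal weight per cell, thinned cells, other pseudocounts and minimums, and left out plates or cells. Python 3.11.15, numpy 2.4.6, pandas 2.3.3, scipy 1.17.1 and matplotlib 3.10.9 were used.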

Additional observations from a re-analysis of the deposited data

How the results depend on the processing

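The counts of 150 genes higher in aSMC and 154 higher in PC moved by over 1.5 times in 3 settings. A pseudocount of 20 CPM gave 98 genes higher in PC, all among the 154. With no minimum share of cells, 450 genes were higher in aSMC and 628 in PC, since genes read in few cells then count. With only cells at or below 10000 CPM of immediate early genes, a setting added after the data were seen, 227 and 312 were found in 12 aSMC and 43 PC cells. TMM factors gave 174 and 128, with a shift of all genes by 0.14, and leaving out a plate gave 151 to 220 and 144 to 185. Of the 150 genes 86 and of the 154 genes 57 were 4-fold apart in the same direction in all 17 settings that change the difference. The 30 genes ranked first were 4-fold apart in each of them, at 3.09 or more, which concerns the difference and not the share of cells. After thinning, Trf was read in 35.2% and Adk in 44.4% of PC cells, under the minimum share. Thinned cells gave 133 genes higher in aSMC and 110 higher in PC.

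The medians of 4 lists changed sign in 1 setting each: the Notch pathway was at 0.0176 with equal weight per cell, RGS genes at 0.0681 and mural transcription factors at −0.0311 without plate s482s, and astrocyte markers at 0.682 without the largest cell of each gene. The other 2 settings added after the data were seen left out cells rich in microglial genes or low in both mural lists, and gave 148 and 137 and 153 and 160 genes. Removing cells above 1000 CPM of the astrocyte list was planned and not run, because it left 0 aSMC and 1 PC cells.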

Other observations

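The following genes lie outside the lists and were chosen after their values were seen. Myh9, a non-muscle myosin heavy chain, had 39.2 CPM in aSMC and 332 CPM in PC (−2.93). Atp2a3, the SERCA3 calcium pump, had 115 CPM in aSMC and 654 CPM in PC (−2.46, and −1.88 without plate s483s). Enpep, the aminopeptidase that trims angiotensin II, had 49.3 CPM in aSMC and 479 CPM in PC (−3.16), and Sod3, the extracellular superoxide dismutase, 373 and 1877 CPM (−2.31). Entpd1, the ectonucleotidase CD39, had 1122 CPM in aSMC and 65.7 CPM in PC (3.99), while MG cells had 1280 CPM.

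Among 283 genes 4-fold apart that were placed in RefSeq, 16 pairs were neighbours in the order of protein-coding genes counted here. Noncoding genes between them were not considered. Of the 16 pairs, 14 had the same direction, 8 towards aSMC and 6 towards PC, and 2 were opposite. How many pairs the same number of other genes would give was not counted, so the pairs are a description only. The pairs include Kcnj8 with Abcc9, Lrrc8b with Lrrc8c, and Sorbs2 with Pdlim3. In 3 pairs the gene spans overlap, Pcsk7 with Tagln among them, so reads from the shared stretch cannot be told apart without strand. Whether their exons overlap was not checked.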
